A study of Mus musculus with 12 samples.

Results

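The genes described here are 10 that encode FoxO transcription factors, known FoxO targets or regulators of muscle wasting: *Foxo1*, *Foxo3*, *Foxo4*, *Fbxo32*, *Trim63*, *Fbxo30*, *Klf15*, *Cdkn1a*, *Ddit4* and *Mstn*. The 10 genes were named with earlier results of these data known, and their probes were then taken by symbol, as every non-control probe whose gene name on the array equalled 1 of the 10, out of 27499 gene symbols. This gave 18 probes for the 10 genes, of which 12 probes for 8 genes passed the filter on dim signal. Expression was measured on 12 single-colour arrays of heart muscle RNA, 1 per mouse, from male C57BL6/J mice aged 5 months, in 4 groups of 3. Control mice (C) had neither agent, and C + P mice received the monoamine oxidase inhibitor pargyline at 50 mg/kg/day for 12 weeks. Diabetic mice (D) had streptozotocin, a toxin of pancreatic β-cells, at 50 mg/kg/day for 5 days, and D + P mice had both agents. Diabetic hearts were compared with non-diabetic ones, as the untreated pair (D relative to C) and as the pargyline pair (D + P relative to C + P), and over the mean of both. Streptozotocin mice counted as diabetic from a blood glucose of 17 mM, so the model is one of insulin loss through β-cell damage.

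FoxO factors are transcription factors held out of the nucleus while insulin activates the kinase AKT. When insulin signalling drops they enter the nucleus and switch on genes of protein breakdown, among them the muscle ubiquitin ligases, which tag proteins for the proteasome. In skeletal muscle *Fbxo32* (atrogin-1) and *Trim63* (MuRF1) are the best known markers of this program, and in heart both ligases are also expressed and act on sarcomere proteins.

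Promoters of 8 of the 10 genes, all but *Foxo4* and *Fbxo32*, were read from RefSeq (build GRCm38.p6) as windows from 250 bases before to 50 bases after the transcription start. The FoxO core motif GTAAACA, searched on both strands, was found in 1 of these 8 genes, *Trim63*, against 3.65% of all 32851 promoters. The E-box CACGTG was found in 1 of 8, *Klf15*, against 7.15% of promoters, and the glucocorticoid receptor half-site AGAACA, on either strand, in 1 of 8, again *Trim63*, against 19% of promoters. The windows of *Trim63* and *Klf15* are shown up to the base before the start because they hold these letters, and that of *Txnip* because it also holds the FoxO core and is the FoxO target called below. The windows of *Pdk4*, *Pik3r1*, *Fstl1*, *Fkbp4*, *Kcnip2* and *Btg2*, other list genes described below, were searched too and did not hold the FoxO core. For *Foxo6*, *Angptl4* and *Slc2a4*, also described below, no motif result is given. Capitals mark the FoxO core in *Trim63* (chr4:134314870-134315119, plus strand) and *Txnip* (chr3:96557707-96557956, plus strand) and the E-box in *Klf15* (chr6:90462326-90462575, plus strand).
Trim63: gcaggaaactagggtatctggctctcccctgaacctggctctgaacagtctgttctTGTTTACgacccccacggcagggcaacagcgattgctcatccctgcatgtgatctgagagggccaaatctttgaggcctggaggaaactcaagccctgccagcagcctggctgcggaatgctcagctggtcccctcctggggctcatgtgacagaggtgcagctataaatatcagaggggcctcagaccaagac
Klf15: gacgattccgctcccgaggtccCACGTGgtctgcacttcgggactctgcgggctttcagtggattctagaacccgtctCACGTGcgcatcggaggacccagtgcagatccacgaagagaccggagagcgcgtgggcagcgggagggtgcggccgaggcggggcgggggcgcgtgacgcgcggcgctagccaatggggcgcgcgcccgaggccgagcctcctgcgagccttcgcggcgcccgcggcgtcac
Txnip: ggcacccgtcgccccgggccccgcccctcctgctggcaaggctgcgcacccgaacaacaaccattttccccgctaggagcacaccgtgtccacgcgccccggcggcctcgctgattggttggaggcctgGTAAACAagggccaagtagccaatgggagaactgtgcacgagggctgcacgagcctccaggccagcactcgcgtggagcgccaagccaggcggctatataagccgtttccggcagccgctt
Counted from the transcription start, the FoxO core began at position -194 in *Trim63*, where it reads TGTTTAC because it lies on the opposite strand, and at -121 in *Txnip*. The glucocorticoid receptor half-site of *Trim63*, also on the opposite strand, began at -200 and shared no base with it. The 2 E-boxes of *Klf15* began at -228 and -172. A match of letters is a description of these windows and does not show that a factor binds there.

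None of the 8 tested genes passed the threshold in any of the 6 contrasts fitted with limma (adjusted p under 0.05 over all 30859 tested probes). Differences are on the log2 scale throughout, each gene is represented by its brightest probe, and the values of different probes are not set against each other. In the untreated pair, 6 of the 8 differences were above 0 and their median was 0.24, beside a median of -0.01 over all tested probes. In the pargyline pair, 5 of 8 were above 0 with a median of 0.06, beside 0.01 over all probes. Averaged over pargyline, 5 of 8 were above 0 with a median of 0.10. Calls were scarce everywhere on the array: 0.00648% of tested probes passed in the untreated pair, 0.0454% in the pargyline pair and 0.107% in the averaged contrast. At an unadjusted p under 0.05 the members gave 0, 1 and 0 of 8 in these 3 contrasts, against 10.8%, 7.46% and 11.4% of tested probes, and the 1 gene was *Cdkn1a*. The methods' t-test, run here per probe with equal variance and a plain Bonferroni correction, also called 0 of the 8 genes, and 0 or 1 probe of all tested in each of the 4 contrasts between groups. The study's adjusted Bonferroni correction is not described further, so its procedure may differ from the one run here. Without any overlap between groups, 3 of 8 genes were higher in D than in C (*Foxo3*, *Trim63* and *Cdkn1a*), where 11.9% of tested probes were, and in the pargyline pair this held for 0 of 8 genes, where 7.32% of tested probes did. With 3 mice per group, and spreads within groups of 0.16 to 0.45 for these probes (median over all tested probes 0.34), no member passed the threshold set over all tested probes. Values of atrial markers stand beside these differences, since their summed signal also separated D from C. The summed signal of 5 atrial markers was 11150 to 15990 in C and 36470 to 47150 in D, without overlap, and 19940 to 27750 in C + P and 24320 to 48820 in D + P, with overlap. Of the 5, *Sln* and *Bmp10* were well above background on 0 arrays and 2 on all 12. The brightest marker weighs most in such a sum. The median difference of the 3 tested markers was 0.94 in the untreated pair, -0.37 in the pargyline pair and -0.05 averaged. The part of these markers in the differences of the members and of the list genes was not tested.

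**Figure D1:**
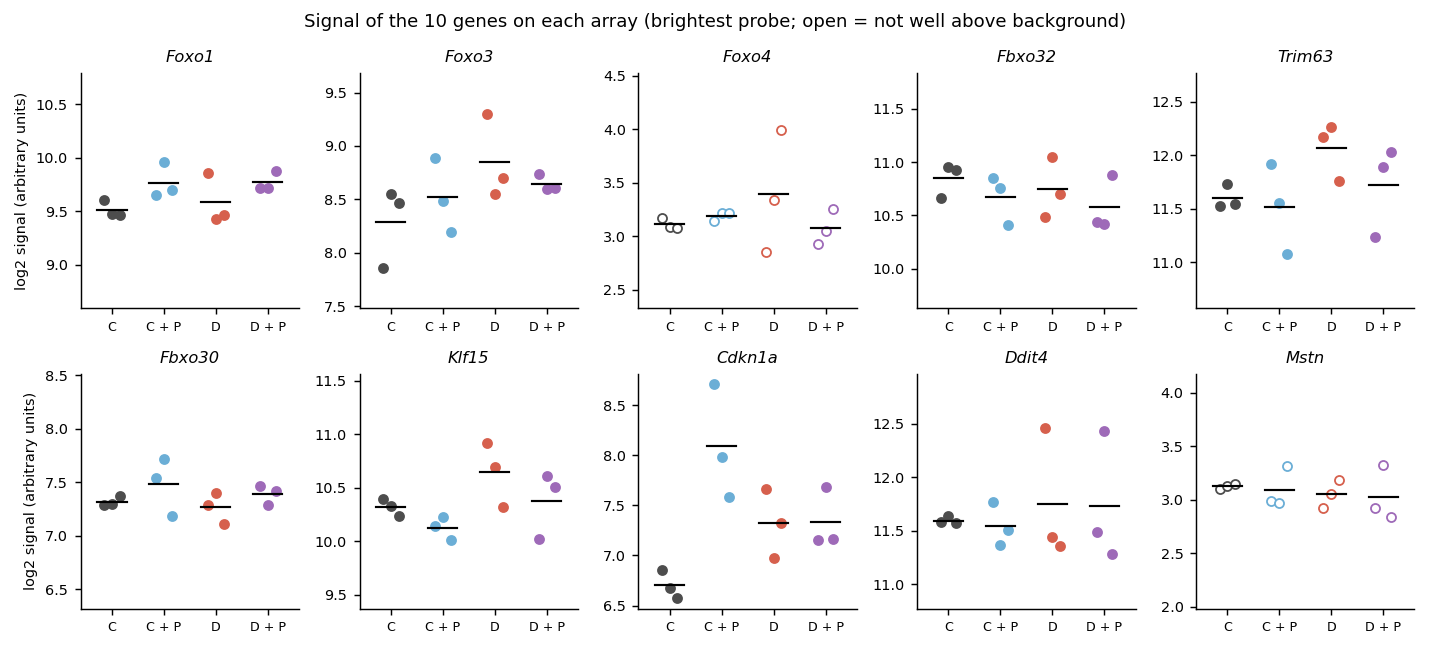
Each panel plots the log2 quantile-normalized signal (arbitrary units) of the brightest probe of 1 gene on the 12 arrays, by group, with a black line at the group mean of 3 mice. Open circles are not well above background, and each panel has its own axis. *Cdkn1a* in C + P stands above all C arrays, 1 array in D and 1 in D + P set the spread of *Ddit4*, and every circle of *Foxo4* and *Mstn* is open.

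*Foxo1*, the factor most studied in insulin action, had values of 9.60, 9.48 and 9.46 in C, 9.85, 9.42 and 9.47 in D, 9.65, 9.96 and 9.70 in C + P and 9.72, 9.72 and 9.88 in D + P. Diabetic and non-diabetic arrays overlapped on both slides, and the averaged difference was 0.04 (95% interval -0.22 to 0.29, adjusted p = 0.928, limma). The second *Foxo1* probe gave an averaged difference of -0.01 (adjusted p = 0.989).

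*Foxo3*, which drives the atrophy ligases in wasting skeletal muscle, had values of 7.86, 8.55 and 8.47 in C, 9.30, 8.55 and 8.70 in D, 8.88, 8.49 and 8.20 in C + P and 8.73, 8.60 and 8.61 in D + P. The D arrays lay above the C arrays only barely, since the highest C array and the lowest D array both stood at 8.55, and the D + P arrays lay inside the range of C + P. The difference was 0.56 in the untreated pair (SE 0.26, adjusted p = 0.464), 0.12 in the pargyline pair (adjusted p = 0.933) and 0.34 averaged (95% interval -0.06 to 0.74, adjusted p = 0.515), the largest averaged difference among the 8 genes in size. As the mean over its tested probes the averaged difference was 0.08, and no longer the largest. Of the 2 other *Foxo3* probes, the second, to the RefSeq transcript, had a difference of 0.005 in the untreated pair (95% interval -1.39 to 1.39), with 1 D + P array at 3.94 and not well above background while the other 11 ranged from 5.82 to 7.20. The last was well above background on 0 arrays and was not tested. Without D replicate 1 the difference of the brightest probe in the untreated pair was 0.33, without C replicate 1 it was 0.34, and with array weights 0.27.

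*Foxo4*, the factor encoded on chromosome X, was not well above background on any array with either of its 2 probes, whose values lay between 2.82 and 3.99. The lowest signal that counted as well above background differed between arrays, from 4.72 to 5.84. No difference is given for this gene.

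The muscle ubiquitin ligases differed in the sign of their differences, and none passed the test. *Fbxo32* had values of 10.67, 10.95 and 10.92 in C, 10.49, 11.05 and 10.70 in D, 10.85, 10.76 and 10.41 in C + P and 10.43, 10.42 and 10.88 in D + P. Its groups overlapped in both pairs, and the difference was -0.10 in each pair and in their average (95% interval of the average -0.42 to 0.22, adjusted p = 0.818). The interval covers folds from 0.747 to 1.16 in diabetic over non-diabetic hearts. Over the 24 alternatives the difference ranged from -0.25 to 0.03 in the untreated pair, -0.36 to -0.01 in the pargyline pair and -0.30 to -0.04 averaged.

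*Trim63* was measured by 3 probes. The brightest had values of 11.53, 11.73 and 11.55 in C, 12.17, 12.26 and 11.76 in D, 11.92, 11.55 and 11.08 in C + P and 11.23, 11.89 and 12.03 in D + P. All D arrays exceeded all C arrays, while D + P and C + P overlapped. The differences were 0.46 in the untreated pair (SE 0.26, adjusted p = 0.532), 0.20 in the pargyline pair (adjusted p = 0.884) and 0.33 averaged (95% interval -0.08 to 0.74, adjusted p = 0.534). With each array left out in turn, that in the pargyline pair ranged from -0.02 to 0.44.

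The second *Trim63* probe, to the same RefSeq transcript, had values of 9.70, 9.76 and 9.72 in C, 10.06, 10.59 and 10.05 in D, 9.87, 9.86 and 9.52 in C + P and 9.92, 10.05 and 10.38 in D + P. Here every diabetic array was above every non-diabetic array of its pair, which held for 1.21% of tested probes. The averaged difference was 0.44 (SE 0.14, 95% interval 0.14 to 0.74, a fold of 1.36), with an adjusted p of 0.276 over all probes. This was the only member probe for which both pairs did not overlap. The third probe, to an Ensembl transcript, gave -0.40 in the untreated pair and 0.44 in the pargyline pair (adjusted p = 0.757 and 0.843), with an SD of 1.16 among the D arrays. Its sign in the untreated pair was opposite to that of the other probes. Its 95% intervals, -1.41 to 0.61 and -0.57 to 1.46, were wide and held the differences of the first and second probes. As the mean over the 3 probes the difference was 0.19 in the untreated pair and 0.34 in the pargyline pair.

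*Fbxo30*, a ligase that bone morphogenetic protein signalling holds down in skeletal muscle, ranged from 7.11 to 7.72 over the 12 arrays and its groups overlapped in both pairs. Its averaged difference was -0.07 (95% interval -0.33 to 0.19, adjusted p = 0.849).

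**Figure D2:**
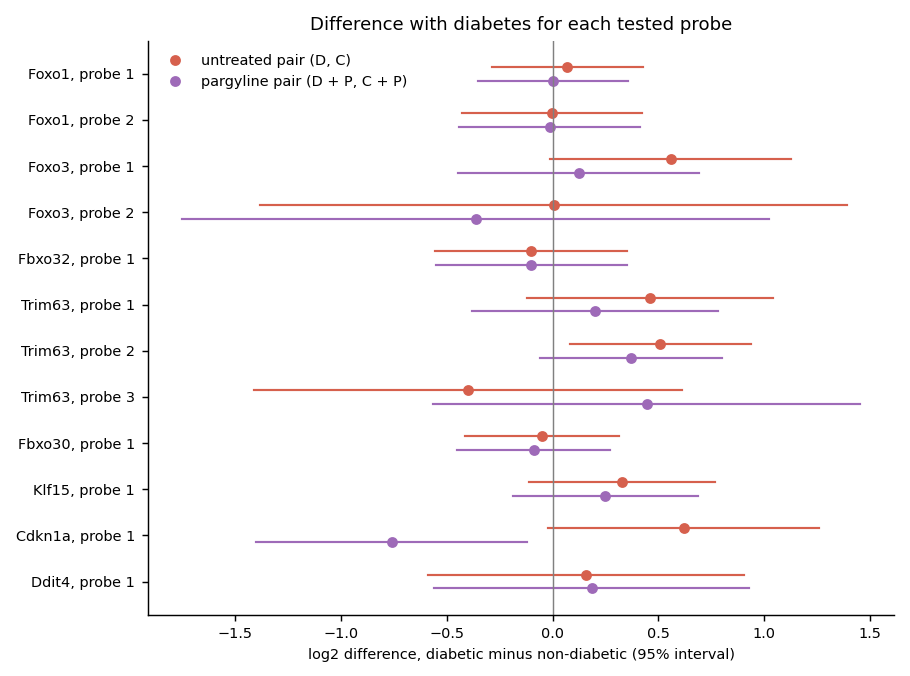
The log2 difference between diabetic and non-diabetic hearts is plotted for each of the 12 tested probes, without pargyline (untreated pair) and with it (pargyline pair), as points with 95% intervals from the limma fit of 3 arrays per group. Probes of a gene are numbered from the brightest. *Trim63* probes 1 and 2 lie above 0 in both pairs, probe 3 has opposite signs, and *Cdkn1a* lies at 0.62 and -0.76.

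*Klf15*, a Krüppel-like factor induced by glucocorticoids that controls amino acid and lipid use in muscle, had values of 10.39, 10.33 and 10.23 in C, 10.92, 10.69 and 10.32 in D, 10.14, 10.23 and 10.02 in C + P and 10.02, 10.61 and 10.51 in D + P. In each pair 2 of the 3 diabetic arrays lay above all non-diabetic ones and 1 lay within their range. The difference was 0.33 in the untreated pair (SE 0.20, adjusted p = 0.551), 0.25 in the pargyline pair (adjusted p = 0.805) and 0.29 averaged (95% interval -0.02 to 0.60, adjusted p = 0.474). The direction was kept when any 1 array was left out, but the size was not. Without D replicate 1 the difference in the untreated pair was 0.19, and that in the pargyline pair was 0.43 without D + P replicate 1 and 0.14 without D + P replicate 2. With normexp background correction the averaged difference was 0.48.

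*Ddit4* encodes REDD1, a brake on mTORC1 that stress and glucocorticoids raise. Its values were 11.58, 11.64 and 11.57 in C, 12.46, 11.44 and 11.35 in D, 11.77, 11.37 and 11.51 in C + P and 11.49, 12.43 and 11.28 in D + P. A single array in each diabetic group, D replicate 1 and D + P replicate 2, was high. The other D arrays, at 11.44 and 11.35, lay below all 3 C arrays. Of the other D + P arrays, that at 11.49 lay within the range of C + P and that at 11.28 below it. The averaged difference was 0.17 (SE 0.24, adjusted p = 0.812). Without D replicate 1 the difference in the untreated pair was -0.20, and without D + P replicate 2 that in the pargyline pair was -0.16. D replicate 1 also had the fewest spots well above background, 23556 against up to 29231 on other arrays. It was the highest D array for *Foxo1*, *Foxo3*, *Klf15* and *Cdkn1a* too, but not for *Fbxo32*, *Trim63* or *Fbxo30*. The part of this in the values of *Ddit4* and of these genes was not tested.

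*Mstn*, which encodes the secreted inhibitor of muscle growth myostatin, was not well above background on any array, with values between 2.84 and 3.33. No difference is given for it.

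*Cdkn1a*, which encodes the cyclin-dependent kinase inhibitor p21, a target of both p53 and FoxO, was the member whose effect of diabetes differed most with pargyline. Its values were 6.85, 6.68 and 6.57 in C, 7.67, 6.97 and 7.33 in D, 8.71, 7.99 and 7.58 in C + P and 7.16, 7.68 and 7.16 in D + P. The C arrays were below the arrays of every other group. The C + P arrays were the highest, although the lowest of them, 7.58, was below the highest of D, 7.67, and of D + P, 7.68. The difference was 0.62 in the untreated pair (95% interval -0.02 to 1.26, adjusted p = 0.469) and -0.76 in the pargyline pair (95% interval -1.40 to -0.12, adjusted p = 0.619), so that the average was -0.07 (adjusted p = 0.92). The difference in the pargyline pair was -0.45 without C + P replicate 1 and -0.48 with normexp. The interaction, the difference between the effects of diabetes with and without pargyline, was -1.38 (SE 0.41, adjusted p = 0.615). At an unadjusted p under 0.05 the interaction counted 1 of the 8 genes, this one, against 7.03% of tested probes, and at the adjusted threshold 0 of 8 against 0.00648%.

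In C + P against C the *Cdkn1a* difference was 1.39 (SE 0.29, 95% interval 0.75 to 2.03, a fold of 2.63) with an adjusted p of 0.383, where 0.0324% of tested probes passed. With array weights in the fit it was 1.27 and passed (adjusted p = 0.0116), the only alternative of 24 in which any member was called in any contrast. C and D arrays shared a slide and C + P and D + P arrays shared another, so that pargyline and slide cannot be told apart in this contrast. The summed atrial marker signal given above was also higher in C + P than in C without overlap, and its part in the *Cdkn1a* value was not tested. The 2 other *Cdkn1a* probes did not pass the filter, being positive and significant on 4 and 1 of the 12 arrays. The first was well above background on C replicate 3 alone (6.71) and the other on 0 arrays.

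Over all 8 genes, C + P against C gave 2 genes higher without overlap (*Foxo1* and *Cdkn1a*, against 7.35% of tested probes) and 1 lower (*Klf15*, against 8.02%), and a median difference of 0.06. At an unadjusted p under 0.05 it counted 1 of 8, again *Cdkn1a*, against 4.43% of tested probes. D + P against D called 0 of 8 genes and 0% of tested probes, with 0 of 8 at an unadjusted p under 0.05 against 13.3% of tested probes, and a median of -0.09 beside -0.00076 over all probes. No member was higher or lower there without overlap, against 7.92% and 9.12% of tested probes. D + P against D is likewise a comparison between slides. The diabetic arrays lay on the second row of both slides and the others on the first, so that row and diabetes cannot be told apart in any contrast.

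The wider FoxO pathway was followed in lists of genes, each represented by its brightest tested probe. Of 34 FoxO factors and regulators, from the insulin receptor to AKT kinases, 32 were tested and 0 passed in any contrast. Their median averaged difference was 0.04, with 19 above 0 and 13 below, and the medians were 0.08 in the untreated pair and -0.02 in the pargyline pair. *Foxo6*, the FoxO factor first described in brain, had means of 8.41 ± 0.25 in C, 7.74 ± 0.26 in D, 8.38 ± 0.20 in C + P and 7.46 ± 0.49 in D + P (SD, n = 3). All diabetic arrays were below all non-diabetic arrays of their pair, and the averaged difference was -0.80 (SE 0.18) with an adjusted p of 0.155. It was -0.47 with normexp, and it passed in 1 of 24 alternatives, array weights (adjusted p = 0.0466). *Pik3r1*, a regulatory subunit of phosphoinositide 3-kinase, had the same order of arrays and an averaged difference of -0.50 (SE 0.15, adjusted p = 0.273).

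Of 36 other FoxO target genes, all tested, 26 had an averaged difference above 0 and 10 below, the median was 0.15 beside -0.01 over all tested probes, and 1 passed, *Txnip*. *Txnip*, the thioredoxin-interacting protein that limits glucose uptake, had values of 13.40, 13.42 and 12.87 in C, 15.01, 14.50 and 14.07 in D, 13.17, 13.43 and 12.65 in C + P and 14.27, 14.58 and 14.57 in D + P. All 6 diabetic arrays were above all 6 non-diabetic ones. It rose by 1.35 averaged over pargyline (SE 0.20, adjusted p = 0.0423), with differences of 1.30 in the untreated pair and 1.39 in the pargyline pair that did not pass on their own (adjusted p = 0.237 and 0.186). The call was lost when any 1 array other than D replicate 3 or D + P replicate 1 was left out, with averaged differences of 1.22 to 1.46 and adjusted p up to 0.141. It was also lost with no probe filter (adjusted p = 0.0592) and with replicate number as a block (adjusted p = 0.0681). It is also a target of glucose-sensing factors, and it stood in the mTORC1 list too. *Pdk4*, the kinase that shuts off pyruvate dehydrogenase, showed a larger difference of 1.74 (SE 0.31) with more spread, and did not pass (adjusted p = 0.0766). It passed in 4 of 24 alternatives, without D + P replicate 1 (adjusted p = 0.0303), with a stricter probe filter (0.0456), with array weights (0.034) and with a trended, robust fit (0.0285).

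**Figure D3:**
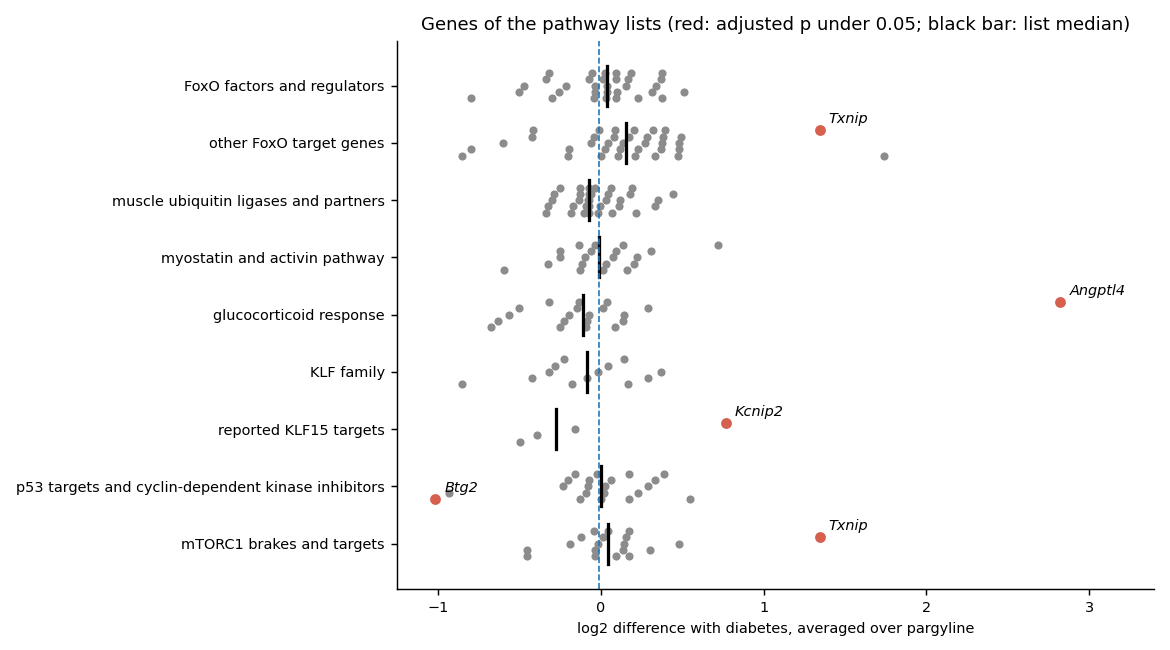
Each point is the log2 difference between diabetic and non-diabetic hearts, averaged over pargyline, of 1 gene in 1 of 9 lists. Red points passed the adjusted threshold of 0.05, black bars are list medians, and the dashed line is the median of all tested probes, -0.01. The medians lie between -0.27 and 0.15, and *Txnip*, *Angptl4*, *Kcnip2* and *Btg2* are the called genes.

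The list of 34 muscle ubiquitin ligases and their partners, all tested, held *Fbxo32*, *Trim63* and *Fbxo30*. In the averaged contrast 12 of the 34 were above 0 and 22 below, the median was -0.07, and 0 passed. The untreated pair had 19 above and 15 below with a median of 0.02, and the pargyline pair 12 above and 22 below with a median of -0.09. None of the 34 had both pairs without overlap in 1 direction. Of 25 genes of the myostatin and activin pathway, 20 were tested and 0 passed, with 10 above 0 and 10 below in the averaged contrast. Their median was 0.12 in the untreated pair and -0.06 in the pargyline pair. *Fstl1*, a secreted follistatin-like protein, was higher in every diabetic array than in the non-diabetic arrays of its pair (0.31, SE 0.11, adjusted p = 0.354). Over the 24 alternatives its difference ranged from 0.18 to 0.36 and did not pass. The largest averaged difference of this list was that of *Wfikkn2* (0.72, SE 0.14, adjusted p = 0.118), whose pairs were not both free of overlap.

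Lists chosen around the other members also held genes on both sides of 0. Of 20 genes of the glucocorticoid response, *Klf15* among them, 7 were above 0 and 13 below in the averaged contrast, with a median of -0.11. *Angptl4*, an inhibitor of lipoprotein lipase that fatty acid sensors also control, rose by 2.82 (SE 0.30, adjusted p = 0.0126), and by 3.47 in the pargyline pair (adjusted p = 0.0254), while its difference of 2.18 in the untreated pair did not pass (adjusted p = 0.216). The averaged call was lost without C replicate 1, C replicate 3, D + P replicate 2 or D + P replicate 3 (adjusted p = 0.0509, 0.0695, 0.0609 and 0.0541), and the differences with each array left out in turn were 2.68 to 3.10. *Fkbp4*, a co-chaperone of the glucocorticoid receptor, had a difference of -0.63 (adjusted p = 0.243), which ranged from -0.76 to -0.39 over the 24 alternatives. Of 17 Krüppel-like factors, *Klf15* again included, 13 were tested and 0 passed, with a median of -0.08.

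Of 4 genes reported as KLF15 targets, *Kcnip2*, the subunit that shapes the transient outward potassium current, passed. Its values were 6.52, 6.58 and 6.59 in C, 7.31, 7.37 and 7.19 in D, 6.68, 6.28 and 6.18 in C + P and 7.07, 7.16 and 7.33 in D + P. All 6 diabetic arrays were above all 6 non-diabetic ones, and it rose by 0.77 (SE 0.11, adjusted p = 0.0423) averaged over pargyline, with differences of 0.73 and 0.81 in the untreated and the pargyline pair that did not pass on their own (adjusted p = 0.244 and 0.186). The call was lost when any 1 array other than C + P replicate 1 or D + P replicate 1 was left out (differences of 0.72 to 0.84, adjusted p up to 0.153). It was also lost with normexp background correction, where the difference was 0.56 (adjusted p = 0.0997), with no probe filter (adjusted p = 0.0582) and with replicate number as a block (adjusted p = 0.131). The other three were below 0, among them *Slc2a4*, the insulin-regulated glucose transporter, at -0.39 (adjusted p = 0.255). Over the 24 alternatives the *Slc2a4* difference ranged from -0.45 to -0.21.

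Of 23 p53 targets and cyclin-dependent kinase inhibitors, 21 were tested and 1 passed, *Btg2*, an antiproliferative gene that growth stimuli also induce. Its means were 9.29 ± 0.29 in C, 8.75 ± 0.13 in D, 10.64 ± 0.23 in C + P and 9.15 ± 0.35 in D + P (SD, n = 3), so that, as for *Cdkn1a*, the highest group was C + P. It fell by 1.02 averaged over pargyline (SE 0.16, adjusted p = 0.0471), with differences of -0.54 in the untreated pair and -1.49 in the pargyline pair that did not pass on their own (adjusted p = 0.431 and 0.068). The call was lost when any 1 array other than D + P replicate 1 was left out (differences of -1.12 to -0.93, adjusted p up to 0.152). Of 24 alternatives in all, 17 lost it, among them 75th percentile scaling (adjusted p = 0.051), normexp (-0.76, adjusted p = 0.201), no probe filter (adjusted p = 0.07) and the blocks by slide column, slide and replicate number (adjusted p = 0.0552, 0.122 and 0.116). The list had 11 genes above 0 and 10 below. Of 19 genes of the mTORC1 list, 11 were above 0 and *Txnip* was the only call.

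**Figure D4:**
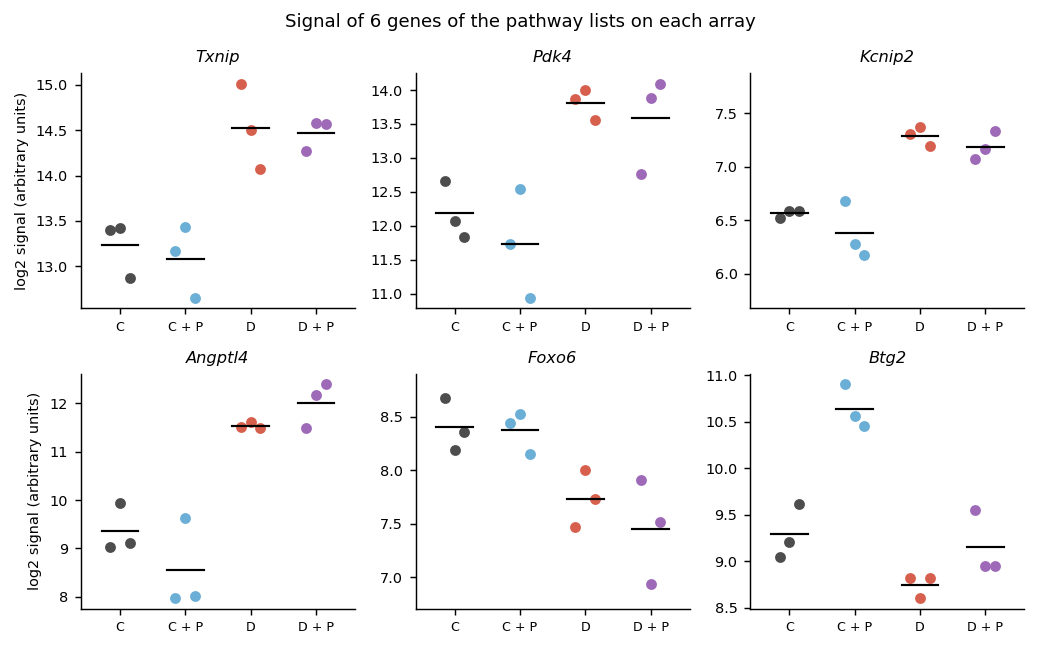
The log2 quantile-normalized signal (arbitrary units) of 6 genes of the lists is plotted on the 12 arrays by group, with a black line at the mean of 3 mice and an axis of its own in each panel. *Txnip*, *Pdk4*, *Kcnip2* and *Angptl4* are higher and *Foxo6* lower on all diabetic arrays than on the non-diabetic arrays of their pair, and *Btg2* is highest in C + P.

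The genes whose pattern over the 12 arrays was most like that of *Foxo3*, the member with the largest averaged difference in size, were *Trim32* and *Stk38l* (Pearson r = 0.935 for both), *Insr* (0.93), *Pja1* (0.924) and *Rab28* (0.917). These are the highest of all tested genes, the 12 points share arrays and normalization, and the values are a description. *Trim32*, a ubiquitin ligase of muscle, and *Insr*, the insulin receptor, are in the lists above, and *Stk38l*, *Pja1* and *Rab28* are in none of them. The likeness is to the brightest *Foxo3* probe alone, whose lowest array was C replicate 1 (7.86) and highest D replicate 1 (9.30).

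All 7 cardiomyocyte markers of the labelled tissue were well above background on all 12 arrays. Of 8 skeletal muscle markers 1 was so on all 12 arrays, 3 (*Myh1*, *Myh2* and *Actn3*) on 0 and the others on some, and of 5 fat markers 1 was so on all 12, 3 (*Adipoq*, *Plin1* and *Cidec*) on 0 and the other on some. No gene of any of the 9 marker lists was called in the untreated pair, the pargyline pair, the averaged contrast or C + P against C, where few probes of any kind were called. The 4 macrophage markers, all well above background on all 12 arrays, had a median averaged difference of -0.47 and one of -0.59 in the pargyline pair. Their summed signal was 3982 to 5417 in C, 3209 to 4255 in D, 3966 to 5812 in C + P and 3210 to 4190 in D + P, with overlap in both pairs, and its part in the differences was not tested. Other sums did not overlap between some compared groups. That of 5 fibroblast markers was 40800 to 42830 in C + P and 45440 to 53140 in D + P, while their median difference in this pair was -0.03. That of 8 skeletal muscle markers was 494.1 to 522.6 in C + P, 303.0 to 449.7 in D + P and 420.6 to 470.2 in C, and that of 4 endothelial markers 7054 to 9467 in D and 10430 to 13330 in D + P. The median difference of the 6 tested skeletal muscle markers was -0.27 in the pargyline pair and 0.23 in C + P against C. These sums were named, out of 9 lists, because they did not overlap, and the brightest marker weighs most in each. The part of these in the differences was not tested either. In whole heart RNA, fewer cells of a type and less RNA per cell cannot be told apart. The arrays had between 23556 and 29231 of 59305 spots well above background, and 0 spots were saturated.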

How the data were processed

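Heart RNA was labelled with Cy3 and hybridised to Agilent SurePrint G3 arrays. The authors deposited the scanner's spot intensity values (Feature Extraction 12.0.0.7 per the file headers, where the study's methods name another version) and a table they had quantile normalized. The deposited processed intensity is already background-subtracted, so dim probes have no reliable order.

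Here log2 intensity of the deposited scanner files was quantile normalized over non-control spots, outlier spots were set missing, repeated spots averaged, and probes kept that were positive and significant on at least 50% of arrays of every group (30859 of 56605). Of the kept values, 2.03% were not positive and significant and were used as measured. limma 3.58.1 in R 4.3.3 fitted 1 mean per group over all 12 arrays, with Benjamini-Hochberg adjustment over all tested probes (threshold 0.05, two-sided), in place of the study's t-tests. The moderated fit had 8 residual and 2.62 prior degrees of freedom. The script was tested on simulated data.

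The members and lists were chosen with earlier results of these data known. The genes named were all members, and from each list those past the threshold in any contrast, filled up to 3 with the largest averaged differences among genes whose pairs both did not overlap in the same direction. Gene names are those of the array or, by accession, RefSeq. Probe positions are on mm9 in the files and were not used, since no annotation of that build was at hand, so exon and UTR positions are not given. Alternatives covered normalization, background, filters, blocks, weights, test, probes of a gene and each array left out.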

Additional observations from a re-analysis of the deposited data

Results flagged for a closer look

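The effect of diabetes on *Cdkn1a* had opposite signs with and without pargyline. All 3 D arrays lay above the C mean and all 3 D + P arrays below the C + P mean. The difference between the effects was -1.38 on the log2 scale, which did not pass the test of the interaction (adjusted p = 0.615, limma).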

How the results depend on the processing

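The count of members called was 0 in all 6 contrasts under each of the alternatives run, except C + P against C with array weights, where it was 1 (*Cdkn1a*). Of 26 differences of members followed through the alternatives, 13 kept their direction in all. The other 13 reversed in some. Under 75th percentile scaling *Foxo1* was -0.061 in the pargyline pair, and with the deposited table -0.0047. With normexp background correction *Fbxo30* was 0.15 in the untreated pair, 0.084 in the pargyline pair and 0.12 averaged, and *Cdkn1a* averaged 0.017. With array weights *Foxo1* was -0.020, *Fbxo32* 0.024, *Fbxo30* 0.0029 and *Ddit4* -0.082 in the untreated pair, and *Foxo1* -0.11 in the pargyline pair and -0.067 averaged. With the mean over a gene's probes *Foxo1* was -0.0059 and *Foxo3* -0.12 in the pargyline pair. In the pargyline pair, leaving out each array in turn gave -0.057 to 0.10 for *Foxo1*, -0.24 to 0.030 for *Fbxo30*, -0.039 to 0.30 for *Foxo3*, -0.019 to 0.44 for *Trim63* and -0.16 to 0.41 for *Ddit4*. In the averaged contrast, leaving out each array in turn gave -0.20 to 0.084 for *Cdkn1a*, -0.032 to 0.083 for *Foxo1* and -0.0057 to 0.28 for *Ddit4*. In the untreated pair, leaving out each array in turn gave -0.067 to 0.15 for *Foxo1*, -0.25 to 0.026 for *Fbxo32*, -0.20 to 0.36 for *Ddit4* and -0.12 to 0.028 for *Fbxo30*. The cause was not tested.

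The count of list genes called in the averaged contrast was 4. It was 2 with normexp, 1 with no probe filter (which tests more probes) and 9 with array weights, and between 0 and 5 when each array was left out. With replicate number as a block it was 1 (*Angptl4*), and 4 probes were called in all in place of 33. Same-numbered arrays deviated together with r of -0.204 to 0.2, over 0.1 in 4 of 18 pairs, and 5 of 12 arrays correlated best with their own number, so the arrays were treated as sharing only a number. The block changed no count of members. The methods' t-test could not be fitted to the averaged contrast or the interaction. With the 250 bases before the start alone the member counts of the 3 motifs stayed at 1, and the shares of all promoters were 3.17%, 6.02% and 16.1%. The number of arrays, 3 per group, and the signal over background limit what could be called.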
